A study of Mus musculus with 9 samples.

Results

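BAP1 binding was examined at 10 genes of the BCL2 family, which controls the mitochondrial pathway of apoptosis, out of 37273 annotated mouse genes. The genes were chosen by name and role: the pro-survival genes *Bcl2*, *Bcl2l1* and *Mcl1*, the effectors *Bax* and *Bak1*, and the BH3-only genes *Bcl2l11*, *Bad*, *Bid*, *Pmaip1* and *Bbc3*. The effectors and the BH3-only genes together make 7 pro-death genes. All 10 were found in the annotation. The data were 1 list of 13164 ChIP-Seq peaks in Ba/F3, a mouse B cell precursor line that depends on the cytokine IL-3. The peaks came from an anti-BAP1 immunoprecipitation of wild type cells and an anti-FLAG immunoprecipitation of Ba/F3 cells that stably express triple-FLAG-tagged murine BAP1 under puromycin selection. The series also has 3 H2AK119ub samples, of wild type Ba/F3 and of the *Bap1* knockout clones KO3 and KO4, each grown from a single edited cell, and 4 input samples. H2AK119ub was not analysed here, and no expression was measured in this list. Each immunoprecipitation behind the list was sequenced once, the list gives positions only, and the depth is unknown. In this list a peak is therefore present or absent, with no height, no error between replicates and no mark of the antibody that gave it. The read intensities per peak that the study describes were not used here.

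BCL2 family proteins decide whether the outer mitochondrial membrane is permeabilised, the step that releases cytochrome c and starts the caspase cascade. The pro-survival proteins hold the effectors BAX and BAK in check, and the BH3-only proteins relieve this hold or activate the effectors directly. In lymphocyte precursors, cytokines such as IL-3 and IL-7 keep cells alive in part through this balance. BAP1 is a deubiquitinase that removes the H2AK119ub mark from histone H2A in a complex with ASXL proteins.

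Peaks whose middle was at most 1 kb from a transcription start site (TSS) of a gene are termed gene-proximal for it, and distances are negative upstream. A gene-proximal peak was present at 8 of the 10 genes, beside 39.6% of 22367 protein-coding genes and 26.2% of all annotated genes. All 3 pro-survival genes had one, and so did 5 of the 7 pro-death genes, which were *Bax*, *Bcl2l11*, *Bad*, *Bid* and *Bbc3*. The genes without one were the effector *Bak1* and the BH3-only gene *Pmaip1*. With 3 genes on one side and 7 on the other in a single list, the contrast between the roles is a description and was not tested.

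The sequence under the peak closest to the 5′ end of each of the 8 genes is shown for its GC content and its transcription factor motifs, which are described further on. Each stretch is the part of the peak outside annotated exons, in build mm9, 5′ to 3′ on the strand of the gene. Capitals mark matches on either strand to the GC box (GGGCGG), the ETS motif (CCGGAAG), the NRF1 motif (GCATGCGC), the E-box (CACGTG), the CCAAT box (CCAAT) and the FOXO motif (GTAAACA), and no matches overlapped. The stretches are chr1:108610852-108611043 on the minus strand for *Bcl2*, chr2:152657041-152657240 on the minus strand for *Bcl2l1*, chr3:95462508-95462642 on the plus strand for *Mcl1* and chr7:52722269-52722351 on the minus strand for *Bax*. Those of the BH3-only genes are chr2:127951561-127951760 on the plus strand for *Bcl2l11*, chr19:7015998-7016155 on the plus strand for *Bad*, chr6:120866872-120866985 on the minus strand for *Bid* and chr7:16895441-16895640 on the plus strand for *Bbc3*.
Bcl2: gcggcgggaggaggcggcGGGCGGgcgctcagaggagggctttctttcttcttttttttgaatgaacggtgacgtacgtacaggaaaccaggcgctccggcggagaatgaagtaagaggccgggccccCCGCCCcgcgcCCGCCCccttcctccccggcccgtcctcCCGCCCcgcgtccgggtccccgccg
Bcl2l1: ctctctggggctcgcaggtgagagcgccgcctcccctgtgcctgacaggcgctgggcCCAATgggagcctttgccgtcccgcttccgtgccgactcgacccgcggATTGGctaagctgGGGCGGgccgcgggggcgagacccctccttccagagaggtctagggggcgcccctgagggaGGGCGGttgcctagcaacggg
Mcl1: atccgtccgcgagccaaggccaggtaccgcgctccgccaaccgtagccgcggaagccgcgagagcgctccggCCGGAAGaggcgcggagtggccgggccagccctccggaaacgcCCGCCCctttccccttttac
Bax: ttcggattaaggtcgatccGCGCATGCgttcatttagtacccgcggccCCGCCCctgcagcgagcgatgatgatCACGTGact
Bcl2l11: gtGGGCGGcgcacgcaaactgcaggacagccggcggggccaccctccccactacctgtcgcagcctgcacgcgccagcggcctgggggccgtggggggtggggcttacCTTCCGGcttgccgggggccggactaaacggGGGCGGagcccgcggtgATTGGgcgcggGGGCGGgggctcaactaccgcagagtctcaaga
Bad: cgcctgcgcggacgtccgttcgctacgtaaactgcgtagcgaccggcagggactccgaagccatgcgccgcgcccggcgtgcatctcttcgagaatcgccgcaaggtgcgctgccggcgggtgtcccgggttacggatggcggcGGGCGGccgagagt
Bid: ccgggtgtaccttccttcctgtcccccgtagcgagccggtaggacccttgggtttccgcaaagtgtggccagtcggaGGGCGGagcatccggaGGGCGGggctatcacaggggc
Bbc3: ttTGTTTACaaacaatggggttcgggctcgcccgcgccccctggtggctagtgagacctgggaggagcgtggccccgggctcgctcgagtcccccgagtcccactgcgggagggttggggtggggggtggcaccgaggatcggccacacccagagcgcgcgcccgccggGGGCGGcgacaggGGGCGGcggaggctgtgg

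*Bcl2* (ENSMUSG00000057329.6), the founding pro-survival gene, lies on the minus strand at chr1:108434755-108610851 and has 1 annotated TSS. Its gene-proximal peak, at chr1:108610844-108611043, was centred at -92 bp from that TSS and overlapped it. No peak was centred within the 176097 bp of the gene. *Mcl1* (ENSMUSG00000038612.9), which encodes a short-lived pro-survival protein that lymphocytes need, lies on the plus strand at chr3:95462643-95467099. It also has 1 TSS, and the peak at chr3:95462508-95462707 was centred at -36 bp. *Bcl2l1* (ENSMUSG00000007659.11), which encodes BCL-XL, lies on the minus strand at chr2:152593052-152657464 and has 10 distinct TSSs. Its 2 gene-proximal peaks, at chr2:152656799-152656998 and chr2:152657041-152657240, lay 242 bp apart in an intron. The nearer one was at -50 bp from the TSS of the transcript Bcl2l1-002, and the other at 278 bp from that of another coding transcript. Measured from the 5′ end of the gene, the peaks were at 566 bp and 324 bp. All 3 pro-survival genes thus had a TSS covered by a peak, and *Bcl2* and *Mcl1* had a single peak there.

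Of the effectors, *Bax* had a gene-proximal peak and *Bak1* had none. *Bax* (ENSMUSG00000003873.9), which encodes a pore-forming protein of the outer mitochondrial membrane, lies on the minus strand at chr7:52717065-52722268. Its peak at chr7:52722152-52722351 was centred at 17 bp, in the 5′ UTR, and covered the TSS. *Bak1* (ENSMUSG00000057789.6), which encodes the other pore-forming protein, lies on the minus strand at chr17:27156755-27165954 within *Ggnbp1*, a gene of the opposite strand. None of its 5 distinct TSSs had a peak within 1 kb. The nearest peak, at chr17:27175349-27175548, was upstream, at -9494 bp, between genes.

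Of the BH3-only genes, *Bcl2l11*, *Bad* and *Bbc3* had 3 gene-proximal peaks each. This number was reached by 0.791% of all protein-coding genes and by 1.65% of the 8985 that have 3 or more distinct TSSs. The cut of 3 was not planned and was taken up after seeing the data, so the shares are a description only. Both shares are over genes with and without any peak. *Bcl2l11*, *Bad* and *Bbc3* have 6, 5 and 3 distinct TSSs, and no pro-survival gene had more than 2 such peaks. *Bcl2l11* (ENSMUSG00000027381.10) encodes BIM, a BH3-only protein that is central to the death of lymphocytes deprived of cytokine, and lies on the plus strand at chr2:127951774-127988283. A peak at chr2:127951561-127951760 was centred at -114 bp from its main start. A pair of overlapping peaks, 112 bp apart, lay 1458 bp further on in an intron, at -193 bp and -81 bp from the TSS of the processed transcript Bcl2l11-004. These were the only peaks within the gene or 50 kb of it.

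*Bad* (ENSMUSG00000024959.7) encodes a BH3-only protein that survival signalling keeps inactive by phosphorylation, and lies on the plus strand at chr19:7016351-7026388. Its first 2 peaks, at chr19:7015956-7016155 and chr19:7016911-7017110, were at -296 bp from Bad-001 and at 19 bp from Bad-002. Both were also gene-proximal for the neighbouring gene *Gpr137*, at -58 bp and -70 bp, so that they cannot be assigned to *Bad* alone. The third, at chr19:7025965-7026164, lay 9054 bp further on, in the 3′ UTR of *Bad*. It counted through the internal start of Bad-003, 807 bp away, which was the farthest gene-proximal peak of the 10 genes. Beyond the limit of 1 kb, the nearest peak of any of the 10 genes was 5495 bp away, at *Bax*.

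*Bbc3* (ENSMUSG00000002083.6) encodes PUMA, a BH3-only protein that p53 induces after DNA damage, and lies on the plus strand at chr7:16894965-16903554. It was the 1 gene of the 8 at which no TSS was covered by a peak. Its peaks were at -264 bp from Bbc3-002, at -269 bp from the processed transcript Bbc3-003 and at 597 bp from the same start, with 3057 bp and 866 bp between them. All 3 lay in introns. From the 5′ end of the gene they were 575 bp, 3632 bp and 4498 bp away. *Bid* (ENSMUSG00000004446.6), which encodes a protein that links death receptors to mitochondria once a caspase has cleaved it, lies on the minus strand at chr6:120841948-120866871. It had 1 peak, at chr6:120866786-120866985, centred at -14 bp and covering the TSS.

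*Pmaip1* (ENSMUSG00000024521.7), which encodes NOXA, the BH3-only protein that binds MCL1 and favours its degradation, lies on the plus strand at chr18:66618258-66625204. It had no peak in the gene or within 50 kb of it. The nearest peak was far upstream, at -455771 bp, at the TSS of *Lman1*. Among the 10 genes it was the only one without a peak in this range, whereas 65.6% of protein-coding genes had one.

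**Figure D1:**
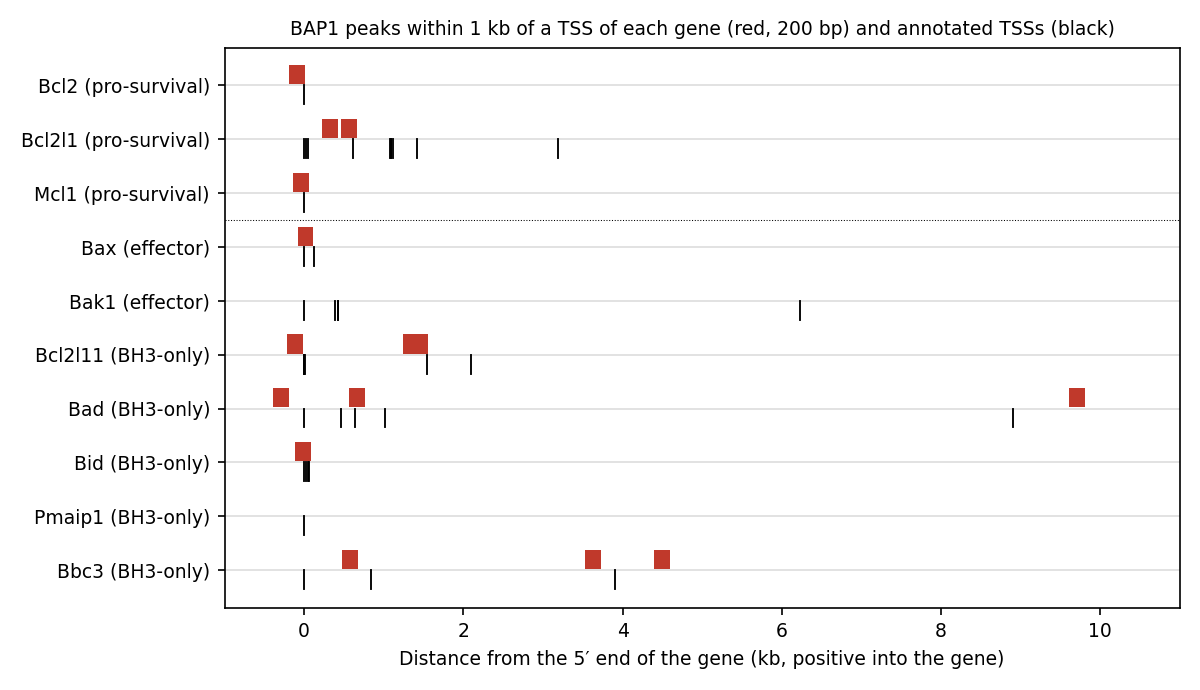
Gene-proximal BAP1 peaks (red boxes, 200 bp) and annotated TSSs (black ticks) of each gene, by distance in kb from the 5′ end of the gene. Most peaks sit at or just upstream of a tick, *Bak1* and *Pmaip1* have none, and 1 internal start of *Bid*, 19285 bp from the 5′ end, lies beyond the axis.

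The nearest peak was within 100 bp of a TSS at 7 of the 8, *Bbc3* being the exception, and at 77.8% of the protein-coding genes that have one. The number 7 rests in part on internal and noncoding starts. With protein-coding TSSs *Bcl2l11* was at -114 bp, and with 1 TSS per gene *Bcl2l1* and *Bad* were also beyond 100 bp, at 324 and -296 bp. The distances at *Bcl2*, *Mcl1*, *Bax* and *Bid* were the same with either choice. With all starts, the nearest peak lay upstream at 6 genes and downstream at *Bax* and *Bad*. The median signed distance was -43.0 bp, beside -32.5 bp for all protein-coding genes with a gene-proximal peak, whose quartiles were -73.0 bp and 0.0 bp. Of the 8 genes, *Bcl2l1*, *Mcl1* and *Bid* lay between these quartiles, *Bcl2*, *Bcl2l11* and *Bbc3* further upstream, and *Bax* and *Bad* downstream of the TSS. By role, the nearest peaks were at -92, -50 and -36 bp for the pro-survival genes and at 17, -81, 19, -14 and -264 bp for *Bax*, *Bcl2l11*, *Bad*, *Bid* and *Bbc3*. The distances of both roles overlapped.

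In all, the 10 genes had 15 gene-proximal peaks, 4 at the 3 pro-survival and 11 at the 7 pro-death genes. Of these 11, 10 were at the 5 BH3-only genes. The middles of 8 of these peaks lay in introns, 4 between genes and 3 in UTRs. The number of peaks at the pro-death genes depended on which starts were counted, and the numbers of genes with a peak did not. With TSSs of protein-coding transcripts only, the pro-death genes had 7 peaks and *Bad* alone had 3, beside 0.675% of protein-coding genes with 3 or more. With only the 5′ end of each gene they had 6 peaks, and no gene had 3 (0 of 10), beside 0.228% of protein-coding genes. The 3 pro-survival genes kept 4 peaks with either choice of starts, so the larger count at the 7 pro-death genes rests in part on their internal starts. Within 500 bp, *Bcl2l11* was the 1 gene with 3, and no share over all genes is given for that window.

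The ranges of the 10 genes, each the gene and 50 kb on either side, held 52 peaks, with none in more than 1 range. Only 15 of them were at a TSS of the gene itself, 27 were at the TSS of another gene only, and 10 were further than 1 kb from every annotated TSS. In the whole list, 3091 of the 13164 peaks were that far from every TSS, so the 10 of 52 do not stand out. The count per gene ran from 0 at *Pmaip1* to 13 at *Bad*, with a median of 4.0 beside 1 for protein-coding genes. Since gene length differs, the peaks were also counted per 100 kb of the range, where the median was 2.96 for the 10 genes and 0.938 for protein-coding genes. The pro-survival ranges held 1.09 peaks per 100 kb at *Bcl2*, 3.04 at *Bcl2l1* and 2.87 at *Mcl1*. The pro-death ranges spread more widely, from 0 at *Pmaip1*, 0.8 at *Bid* and 2.2 at *Bcl2l11* to 6.41 at *Bak1*, 7.37 at *Bbc3*, 8.55 at *Bax* and 11.8 at *Bad*. The outermost peak within the ranges lay 47838 bp from the edge of *Bax*, and the nearest one beyond them 55758 bp from that of *Bid*.

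Most of the peaks in the ranges of *Bad*, *Bax* and *Bak1* were at the TSSs of neighbouring genes. In the range of *Bad*, 13 other protein-coding genes had a TSS and 11 of them a gene-proximal peak, among them *Esrra*, *Plcb3*, *Vegfb* and *Prdx5*. At *Bax* the count was 5 of 8, which were *Ftl1*, *Gys1*, *Ntf5*, *Nucb1* and *Ruvbl2*. At *Bak1*, which had no peak of its own, the promoters of all 3 neighbours, *Ggnbp1*, *Itpr3* and *Zbtb9*, had one. The ranges of *Bcl2l11* and *Pmaip1* held no other protein-coding gene's TSS (0 each), and that of *Bid* 1 without a peak. *Bcl2* had *Kdsr* with a peak as its 1 neighbour, *Mcl1* had *Ensa* with one out of 2, *Bcl2l1* had *Id1* and *Tpx2* out of 3, and *Bbc3* had *Ccdc9* and *Prr24* out of 2.

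**Figure D2:**
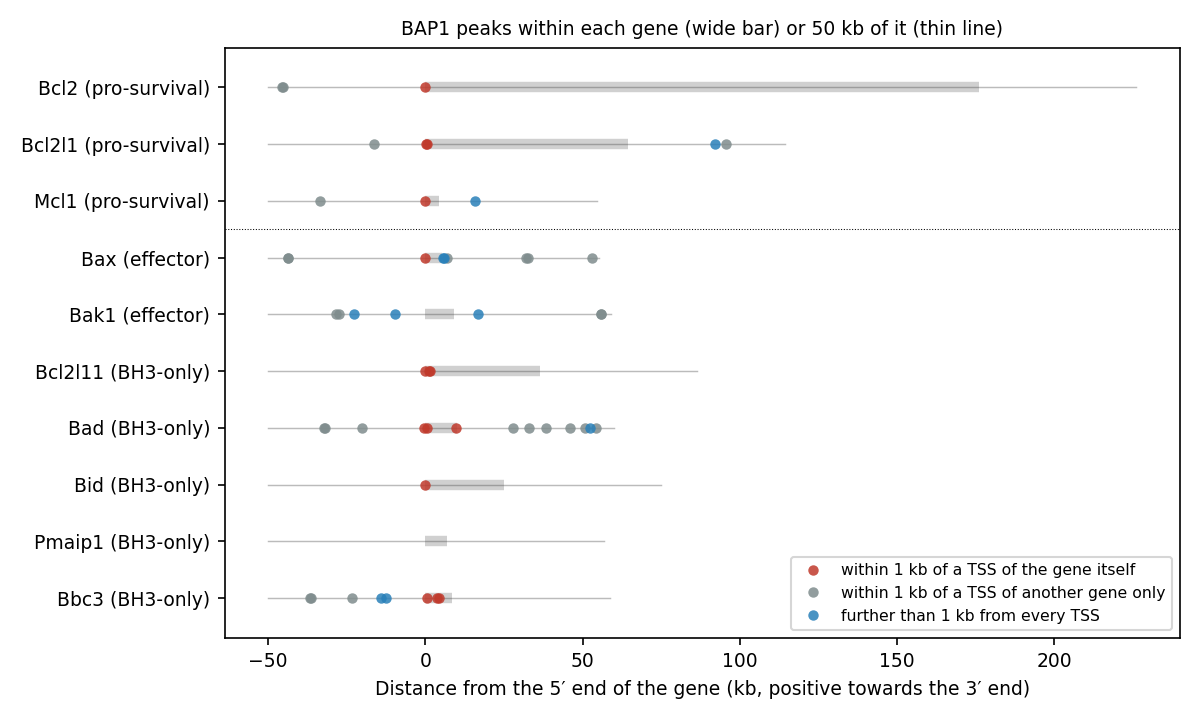
All 52 peaks within each gene (wide bar) or 50 kb of it (thin line), by distance in kb from the 5′ end of the gene and coloured by the TSS they lie at. Peaks at TSSs of other genes make up most of the points at *Bad*, *Bax* and *Bak1*, and none lies in the long body of *Bcl2*.

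The 10 peaks away from every TSS were spread over 6 genes. They were 2 of the 11 peaks in pro-survival ranges and 8 of the 41 in pro-death ranges, which are like shares. *Bak1* had 3 of them, at 10654 bp in an intron of *Ggnbp1* and at -9494 bp and -22781 bp upstream. *Bax* had 2, at 5495 bp and 5707 bp, just past its 3′ end, and *Bbc3* had 2, at -12620 bp and -14033 bp. *Bcl2l1* had 1 at 88997 bp, *Mcl1* 1 at 15699 bp and *Bad* 1 at 43570 bp, in an intron of *Nudt22*. Of the 10, 8 lay between genes and 2 in introns. Which gene, if any, such a peak acts on was not tested.

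The promoters of the 10 genes were then compared in their CpG content, given as observed over expected CpG in the 500 bp on either side of the 5′ end. Protein-coding genes with a gene-proximal peak had a median of 0.761, with quartiles of 0.645 and 0.86, and those without one a median of 0.294, with quartiles of 0.156 and 0.567. The 3 pro-survival promoters were at 0.871 (*Bcl2*), 0.762 (*Bcl2l1*) and 0.962 (*Mcl1*). The 5 pro-death promoters with a peak were at 0.707 (*Bax*), 0.766 (*Bcl2l11*), 0.843 (*Bad*), 0.734 (*Bid*) and 0.657 (*Bbc3*). All 8 were thus above the upper quartile of genes without a peak.

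The 2 genes without a peak differed from each other in this ratio. *Bak1* was at 0.279, with its other starts at 0.302 to 0.309, and 10.1% of the 2138 protein-coding genes within 0.05 of its ratio had a gene-proximal peak. *Pmaip1* was at 0.939, higher than 94.9% of protein-coding genes, and 78.1% of the 1635 genes within 0.05 of its ratio had a peak. For the genes with a peak, this share ran from 59.9% at *Bbc3* to 77.3% at *Bcl2* and *Mcl1*. *Pmaip1* therefore lacked a listed peak where most promoters of like CpG content had one, and whether it was below the limit of the peak caller cannot be told from a list without scores.

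**Figure D3:**
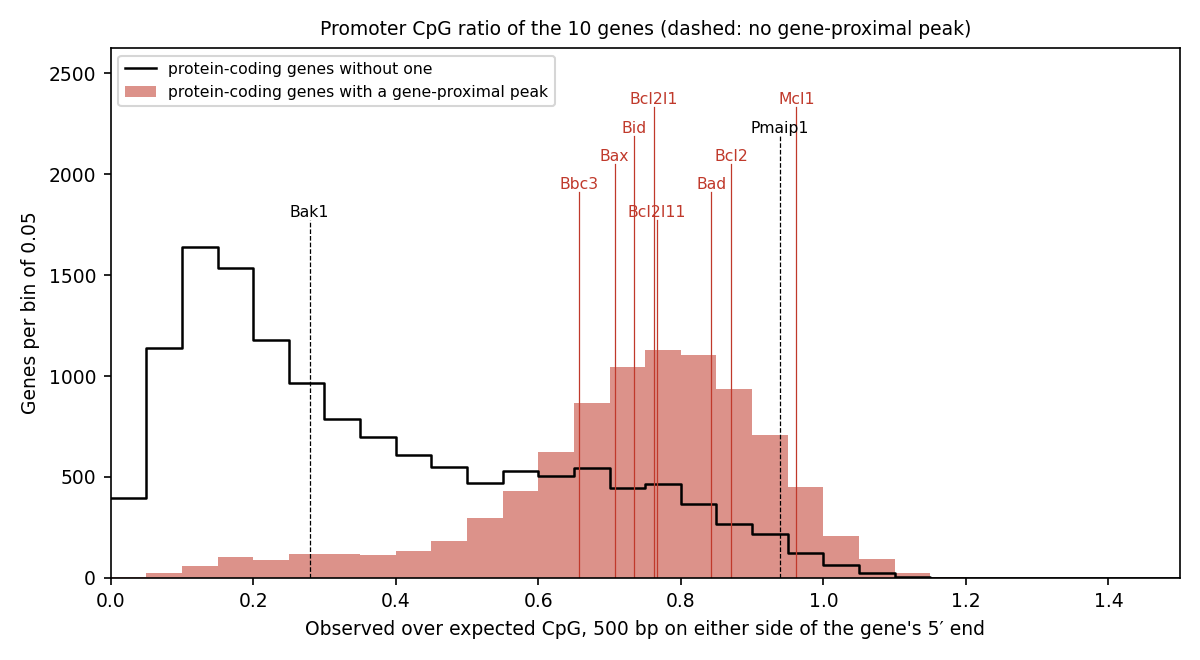
Observed over expected CpG of the 10 promoters (vertical lines, solid red with and dashed black without a gene-proximal peak) over the numbers of protein-coding genes per bin of 0.05 with (filled) and without (outline) one. Line heights only separate the labels. *Bak1* at 0.279 lies among genes without a peak, and *Pmaip1* at 0.939 lies where genes with a peak are more numerous.

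The peaks themselves were GC-rich. The 15 gene-proximal peaks had a median GC content of 71.5%, from 56.5% to 76%, beside 67% over all gene-proximal peaks of the list. Their median CpG ratio was 0.82, beside 0.876 over all gene-proximal peaks, and ran from 0.229 at the middle peak of *Bbc3* to 1.2 at *Bax*. The 10 peaks away from every TSS had a median GC content of 61.8% and a median CpG ratio of 0.272, beside 54% and 0.34 over all gene-distal peaks.

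Of 12 motifs searched on both strands, the GC box was found in 12 of the 15 gene-proximal peaks, beside 68.6% of all gene-proximal peaks, and the CCAAT box in 7, beside 30%. The overlapping pair of peaks at *Bcl2l11* shared a GC box and a CCAAT box, so that the same site counted for both peaks. In the stretches shown above, *Bcl2* had 4 GC boxes and *Bcl2l11* had 3 with an ETS motif and a CCAAT box, while *Mcl1* had an ETS motif and a GC box. The ETS motif was found in these 2 peaks of the 15, beside 20.2% of all gene-proximal peaks. *Bax* had the NRF1 motif (5.8% of gene-proximal peaks) and the E-box (8.06%), the third peak of *Bad* had the YY1 motif AANATGGCG (6.14%), and the first peak of *Bbc3* had the FOXO motif (2.09%). None of the 15 (0) held the motifs CRE (TGACGTCA, 3.35%), E2F (TTCCCGC, 7.13%), ZNF143 (ACTACAA, 2.92%) or STAT (TTCNNNGAA, 3.6%), or that of p53, which was found in 1 of the 13164 peaks. A match describes the letters of the sequence and does not show that the factor binds there.

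The peaks are numbered in the deposited list, and what the order stands for is not given in the sources used here. The share of peaks within 1 kb of any TSS was lower later in the list, going from 99% in the first and second of 5 equal parts to 98.5%, 75% and 11.1%. Of the 15 gene-proximal peaks of the 10 genes, the parts held 1, 4, 4, 5 and 1 in this order. *Bax* stood earliest, at number 1416, followed by *Mcl1* at 2917, *Bad* at 3339 and 4426, *Bid* at 3674 and *Bcl2* at 5363. The peaks of *Bcl2l11* were at 5566, 6703 and 7817 and those of *Bcl2l1* at 8681 and 9069. *Bbc3* came later, at 9338, 10359 and 10469, and the third peak of *Bad* was at 10922. Pro-survival and pro-death genes were mixed along the list. The 10 peaks away from every TSS were all in the last 2 parts, with 4 and 6.

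**Figure D4:**
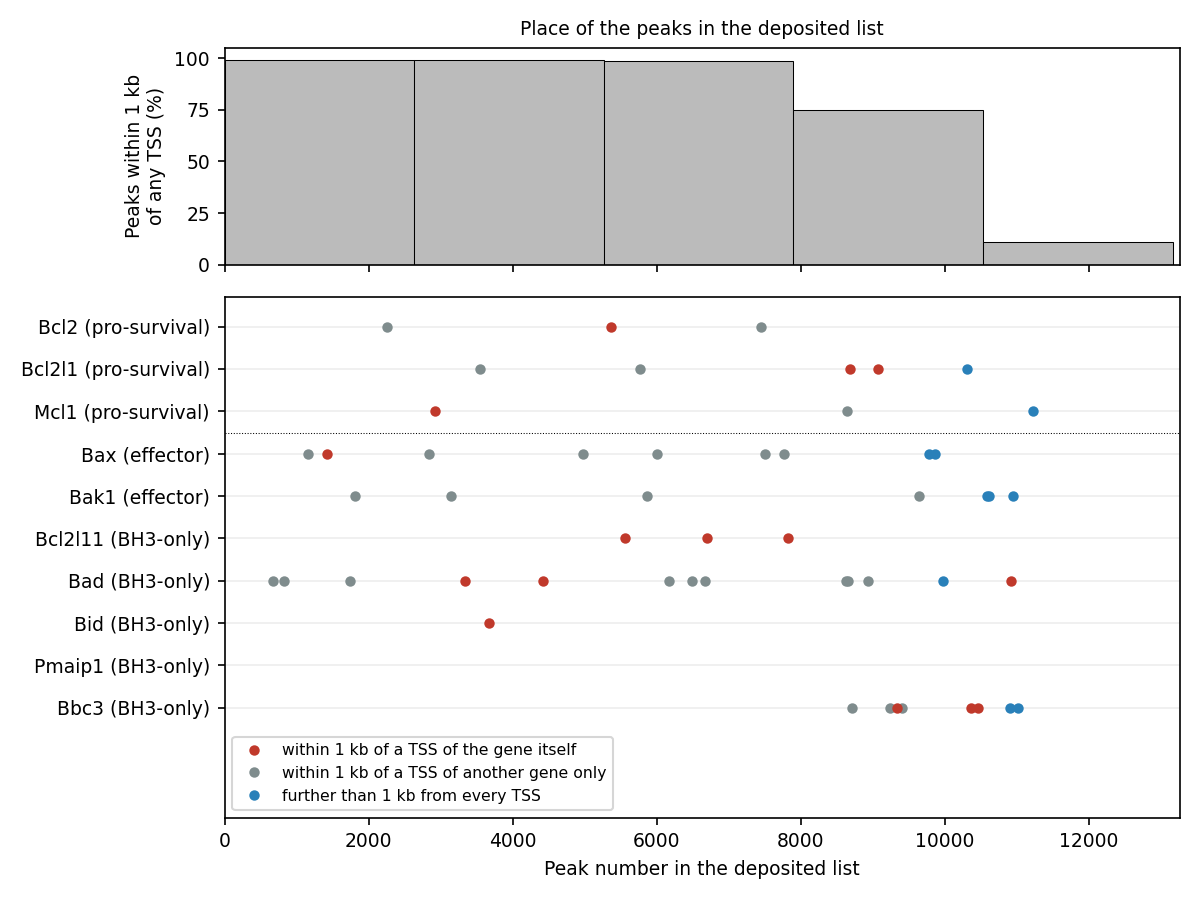
Upper panel, percent of peaks within 1 kb of any TSS in 5 equal parts of the list. Lower panel, peak number of each of the 52 peaks, coloured by the TSS they lie at. The peaks in the range of *Bbc3* all have number 8712 or later, and peaks away from every TSS lie to the right.

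Other genes of the apoptosis pathway were counted in the same way. Of 13 other BCL2 family genes, 4 had a gene-proximal peak (30.8%), below the 39.6% of protein-coding genes: the pro-survival gene *Bcl2l2* at -47 bp, the BH3-only gene *Bmf* at 5 bp, *Bcl2l12* at 7 bp and *Bcl2l13* at -58 bp. The 9 without one included the pro-survival genes *Bcl2a1a*, *Bcl2a1b* and *Bcl2a1d*, at -66743, 12000 and 12122 bp, and *Bcl2l10* at 62350 bp. The others were *Bok*, *Bik*, *Hrk*, *Bcl2l14* and *Bcl2l15*. Of 11 genes listed under the apoptosome and caspases, 10 had a gene-proximal peak (90.9%). The exception was *Endog*, a mitochondrial nuclease, whose nearest peak was 6920 bp away. Of 7 inhibitors of apoptosis and their antagonists 6 had one (85.7%), and *Birc2*, with its nearest peak at -1871 bp, did not. Of 10 genes of the death receptor pathway 6 had one (60%). Those without one were *Fasl*, the ligand of the receptor FAS, at -88421 bp, the receptor gene *Tnfrsf10b* at -34734 bp, the initiator caspase gene *Casp8* at -82464 bp and the necroptosis kinase gene *Ripk3* at 43157 bp. Together, 26 of the 41 carried a gene-proximal peak (63.4%), and none of them (0) had 3 or more.

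**Figure D5:**
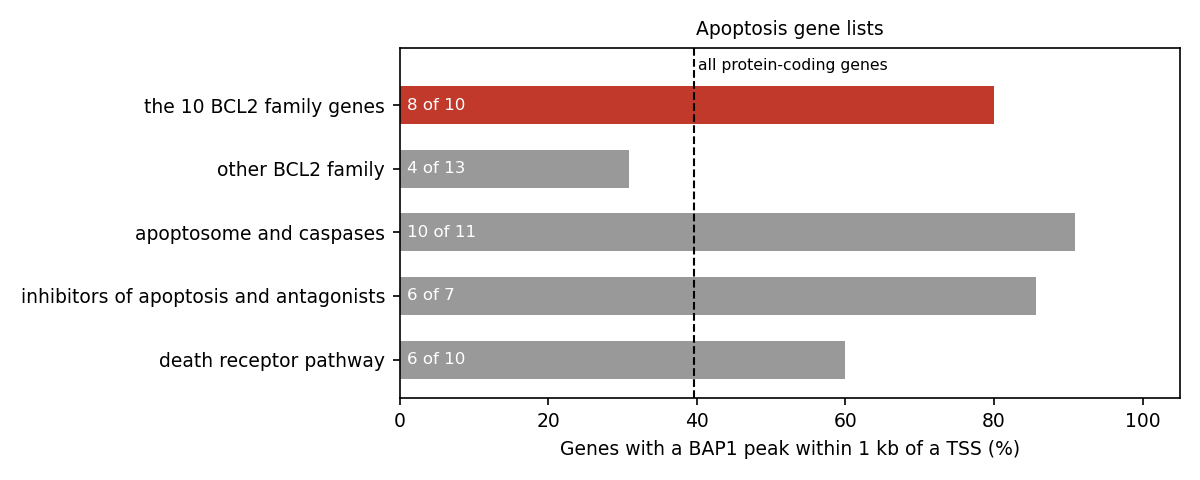
Percent of genes with a BAP1 peak within 1 kb of a TSS in each list, with the counts in the bars and the share of all protein-coding genes (39.6%) as a dashed line. The bar of the 10 genes stands at 8 of 10, and the other BCL2 family genes, at 4 of 13, are the only list left of the line.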

How the data were processed

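ChIP-Seq was carried out in Ba/F3 cells, with 1 anti-BAP1 and 1 anti-FLAG sample behind the peak list. Per the labels, the authors aligned reads to mm9 (Bowtie 1.0.0) and used MACS 1.4.2 for peak calling over input DNA. The deposited list holds start and end positions of 13164 peaks, all 200 bp wide, without scores. The threshold and the rule that joined both samples are not given in the sources used here. A stricter threshold could lower the counts. This was not examined, since the list has no scores and the read intensities that the study describes were not used. Unmatched per-sample columns numbered 0.

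Peaks were placed on GENCODE release M1 by the signed distance of their middle to every annotated TSS. Chromosome lengths were checked against the mm9 genome, from which GC content, CpG ratios and motifs were read. The software was Python 3.11.15, numpy 2.4.6 and matplotlib 3.10.9. The scripts were tested on simulated data, where 500 of 500 distances equalled those of a direct search and 200 of 200 planted distances were recovered. No test was run, because 1 list without replicates gives no error. The alternatives were windows of 500 bp and 2 kb, the edge of the peak, protein-coding TSSs, 1 TSS per gene, peaks merged within 500 bp, and ranges of 20 and 100 kb. Their effect on the numbers of peaks by role, and on genes with 3 or more peaks, was examined after seeing the data. The count of genes with 3 or more peaks was itself not planned.

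The 10 genes, the other lists and the motifs were chosen with earlier results of these data known. The genes named were the 10 themselves, other genes with a TSS at a peak in their ranges, and, in each other list, the genes with or without a gene-proximal peak, whichever were fewer. *Lman1* and the other BCL2 family genes without a gene-proximal peak were named as well, after their positions were seen.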

Additional observations from a re-analysis of the deposited data

How the results depend on the processing

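The numbers of genes with a gene-proximal peak, 8 in all, 3 pro-survival and 5 pro-death, did not change with windows of 500 bp or 2 kb, the edge of the peak, protein-coding TSSs, 1 TSS per gene or peaks merged within 500 bp. Over all protein-coding genes the share with such a peak was 39.2% with protein-coding TSSs and 37.5% with 1 TSS per gene. For the other alternatives no share over all genes is given, either with a peak or with 3 or more, so their counts have no background. The number of genes with 3 or more peaks, 3 in the report, was 1 with the window of 500 bp, 1 with protein-coding TSSs, 0 with 1 TSS per gene and 2 with peaks merged within 500 bp. It was 3 with the window of 2 kb and with the edge of the peak. The gene-proximal peaks of the pro-death genes, 11 in the report, were 7 with protein-coding TSSs and 6 with 1 TSS per gene, since fewer starts were counted. Those of the pro-survival genes stayed at 4 with both. With a range of 20 kb, 26 peaks lay in or near the 10 genes in place of 52. With 1 TSS per gene the nearest peak changed side at 3 genes, to 324 bp at *Bcl2l1*, -296 bp at *Bad* and 575 bp at *Bbc3*. At *Bcl2l11* it moved to -114 bp with protein-coding TSSs and with 1 TSS per gene. Of 30 recomputed distances, 15 were the same, 12 moved on the same side or onto the TSS and 3 changed side. No paired analysis was possible because the result comes from no test. The depth is unknown, so a gene without a listed peak may have binding that was not detectable.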
